A study of Homo sapiens with 4 samples.

Results

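Histone H4 trimethylated at lysine 20 (H4K20me3) was mapped by chromatin immunoprecipitation and sequencing in IMR90 cells, fibroblasts grown from human lung that divide a finite number of times. The regions described here are the short peaks that were called in replicative senescent cells (RS, population doubling 86), overlapped no peak of proliferating cells (PRO, population doubling 32) and lay in a region that DiffBind had listed as differing between both states. Each state was profiled with 2 antibodies, Ab1 and Ab2, which gave 4 samples, and the labels name no treatment for either state. The RS cells had reached arrest by continued passage of the same line, so that a single line, grown to both ends of its lifespan, stands for each state. The deposited lists hold positions only.

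A peak was a member when it lay on chromosomes 1 to 22, was at least 200 bp and under 4000 bp long, shared no base with a PRO peak and shared at least 1 base with a DiffBind region. Of the 35535 peaks in the RS list, 33510 were on chromosomes 1 to 22 and 14462 met this rule. The remaining RS peaks on these chromosomes were 16960 short RS-only peaks outside DiffBind regions, 1295 peaks that overlapped a PRO peak, 429 RS-only peaks of 1 bp and 364 RS-only peaks of 4000 bp or more. Members were thus 43.2% of the RS peaks and held 42.0% of their bases. The members were chosen by length and by overlap between the lists, so these values describe the rule. Each state was represented by 1 merged list over both antibodies, so no spread between replicates was available and none of the differences between shares below was tested. Of the 31422 short RS-only peaks, 46.0% overlapped a DiffBind region, and this was the share against which each count of members within a class of short RS-only peaks was read.

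H4K20me3 is placed by the methyltransferases SUV420H1 and SUV420H2, the latter recruited to chromatin that already carries H3K9me3 through HP1 proteins. It is a mark of constitutive heterochromatin, where it lies over satellite DNA and over silenced transposable elements, and of the coding regions of many zinc finger genes. LINE-1 (L1) elements copy themselves through an RNA, and their first kilobase holds an internal promoter. Cells silence that promoter with H3K9 methylation guided by KRAB zinc finger proteins and by the HUSH complex, which contains TASOR and MPP8. Zinc finger genes are many, lie in clusters, chiefly on chromosome 19, and end in a long exon that codes for a row of finger units joined by a short conserved linker.

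Sequences shared by many members come first, because they name kinds of place that recur in the list. All 31-base sequences in the members were ranked by the number of members that held them on either strand, each rank counting members not yet taken by an earlier one, and the first 40 were kept. Of these, 7 came from the start of L1 elements, an assignment made from general knowledge of the L1 sequence for the most widely shared one and from position for the others, of which between 12.1% and 66.4% of copies lay within 3000 bases of it. A further 7 belonged to a second group, held by fewer members. Its reference was a sequence recognised from general knowledge as part of the long terminal repeat of THE1-type elements, which are remains of an old endogenous retrovirus family, and the other 6 had between 12.2% and 16.6% of their copies within 3000 bases of it. The 21 sequences of Alu elements and the only sequence from the far end of L1 served for contrast, because they are common in the genome.

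Sequence was read in the central window of each peak, which has the length of a SICER window of 200 bp and 1 base more, so that peaks of any length were read alike. The windows of 2 members are shown, one for the finger-coding stretch of a zinc finger gene and one for a window rich in CpG. In a member of 1401 bp over ZNF892 (hg19, chr2:95880401-95881801), the window chr2:95881001-95881201 on the plus strand lay in a coding exon and held 3 copies of the linker between neighbouring zinc fingers, shown in capitals. No other member window inside a zinc finger coding exon held more.
ZNF892: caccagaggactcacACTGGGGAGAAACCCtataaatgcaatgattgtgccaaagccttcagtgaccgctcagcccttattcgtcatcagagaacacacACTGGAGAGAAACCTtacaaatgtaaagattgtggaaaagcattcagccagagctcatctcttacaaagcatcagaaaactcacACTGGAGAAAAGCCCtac

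Of the members whose window lay away from annotated untranslated regions and gene starts, the one with the most CpG dinucleotides was a member of 1001 bp in an exon of C1QTNF4, which encodes a secreted C1q-like protein. Its window (hg19, chr11:47611801-47612001, plus strand) held 37 CpG, in capitals, at a GC content of 76.6%.
C1QTNF4: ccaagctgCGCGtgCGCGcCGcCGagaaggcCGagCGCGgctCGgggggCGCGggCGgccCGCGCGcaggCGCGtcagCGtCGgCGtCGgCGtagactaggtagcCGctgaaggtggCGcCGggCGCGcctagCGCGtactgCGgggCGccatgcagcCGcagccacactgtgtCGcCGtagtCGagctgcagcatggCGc

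The single 31-base sequence held by most members, 625, came from an L1 start, and the next, held by 570, from Alu. As families the order was the other way, with an Alu sequence in 3528 members (24.4%). At least 1 of the 7 L1 start sequences was held by 1368 members, 9.46% of them. Of the 16960 short RS-only peaks outside DiffBind regions, 1585 (9.35%) held one. Members made up 46.3% of all short RS-only peaks with an L1 start, against 46.0% of all short RS-only peaks. The ranking was made on the members, which favours them in any comparison of counts.

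Read from the side of the element, the most widely shared L1 start sequence had 2839 copies on chromosomes 1 to 22. Of these, 625 lay wholly in a member and 829 (29.2%) in a short RS-only peak outside DiffBind regions. A further 4 copies lay in an RS-only peak of 4000 bp or more and 13 in a peak shared with PRO cells. Members covered 0.564% of the sequenced bases of these chromosomes, as did the short peaks outside DiffBind regions. RS-only peaks of 4000 bp or more covered 0.0778% and RS peaks shared with PRO cells 0.137%. Over the 7 L1 start sequences, the share of copies in members ran from 9.86% to 23.6%. For the 21 Alu sequences it ran from 0.692% to 1.1%, although each had between 15260 and 85607 copies. For the sequence from the far end of L1, which had 16620 copies, it was 0.349%, below the 1.65% found in short RS-only peaks outside DiffBind regions.

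The coverage around these copies was narrow. With all 2839 copies turned into the direction of the element, member coverage was 15.9% of copies between 400 and 200 bases before the sequence, 21.8% in the next 200 bases, 21.8% and 19.9% in the first and second 200 bases after its start, and 13.3% between 400 and 600 bases. It was 4.44% in the following 200 bases and 0.176% between 1800 and 2000 bases. Coverage stayed at 50% of its maximum or above from 400 bases before to 600 bases after the sequence start. DiffBind regions were wider and not centred, with 8.85% of copies covered between 1000 and 1200 bases after the start but 2.81% between 1200 and 1000 bases before it. Short RS-only peaks outside DiffBind regions had a second, lower rise at the far end of the element, 2.75% of copies between 5000 and 5200 bases, where members covered 0.189%.

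**Figure D1:**
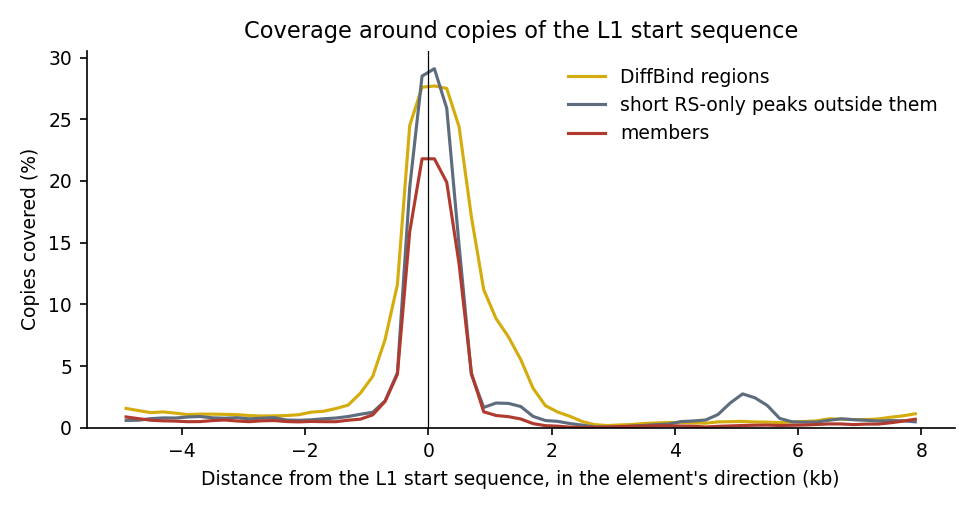
Share of 2839 copies of the most widely shared L1 start sequence covered by members, by short RS-only peaks outside DiffBind regions and by DiffBind regions, in bins of 200 bases from 5 kb before to 8 kb after the sequence, in the direction of the element. Members peak at 21.8% around the start and fall to 0.176% by 1800 to 2000 bases, and the short peaks outside DiffBind regions have a further small rise of 2.75% at 5000 to 5200 bases.

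The copies in members were less often followed by the far end of the element than copies elsewhere, while their place in genes was near that of all copies. The L1 body sequence lay between 3500 and 6500 bases downstream of 344 of the 625 copies in members (55.0%), of 498 of the 829 copies in short peaks outside DiffBind regions (60.1%) and of 882 of the 1385 copies in neither (63.7%). A coding gene body held 204 (32.6%) of the copies in members and 33.8% of all copies. Of the copies in members over genes on a single strand, 68.8% ran opposite to the gene, against 67.2% of all such copies. Which copy a read from a repeated sequence belongs to is uncertain, and the central 75 bases of the peak occurred more than once in the genome in 20.0% of members with an L1 start, compared with 5.98% of members that held neither an L1 start nor a THE1-type sequence and lay over no zinc finger gene.

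Members with an L1 start had a uniform size. Their median length was 1001 bp and the interquartile range ran from 801 to 1001 bp, whereas members of the remaining kind ran from 601 to 1401 bp around a median of 801 bp. Their central windows had a median GC of 56.7%, and 28.7% of them held 6 or more CpG. They covered a median of 66.7% of their DiffBind region. On chromosome 19 there were 18 of them, 1.32%. Short peaks outside DiffBind regions with an L1 start had a median of 801 bp and the same interquartile range. Their median GC was 57.2%, 35.8% of them held 6 or more CpG and 1.45% lay on chromosome 19. These traits were thus not particular to the members.

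THE1-type sequences were held by 466 members (3.22%) and by 369 short peaks outside DiffBind regions (2.18%), and no member held both these and an L1 start. Of all short RS-only peaks with a THE1-type sequence, 55.8% were members, against 46.0% of all short RS-only peaks. These sequences too were ranked on the members, which favours the members in this comparison. The sequence with the highest share had 410 copies, of which 85 (20.7%) lay in members, while the terminal repeat itself had 3736 copies, of which 2.01% did. Members of this kind had a median length of 1201 bp and a median GC of 52.2%, but 0.429% of them held 6 or more CpG. Both kinds were GC-rich, and the CpG-rich members among them were nearly all L1 starts.

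Zinc finger genes were the gene family with the most members. The list had 553 coding genes with symbols ZNF, ZFP, ZSCAN or ZKSCAN and a number. A member overlapped 270 of them (48.8%), against 13.4% of all 19229 coding genes, and 217 had 2 members or more. Short RS-only peaks outside DiffBind regions overlapped 247 (44.7%), against 13.3% of all coding genes. Of the members, 1434 (9.92%) lay over a zinc finger gene, compared with 3.97% of short RS-only peaks outside DiffBind regions, 17.4% of RS peaks shared with PRO cells and 33.2% of RS-only peaks of 4000 bp or more. Without chromosome 19 the share was 3.84% of members and 1.34% of short peaks outside DiffBind regions, and with members within 1000 bp of each other merged it was 6.34%. Of all consecutive windows of the same length on these chromosomes, 0.816% touched such a gene, as did the central windows of 9.78% of members. The share was highest at both ends of the length range. It was 12.4% for members under 500 bp, 6.69% for 500 to 1100 bp, 10.2% for 1100 to 1900 bp and 19.4% for 1900 bp or more, and short peaks outside DiffBind regions had 4.63%, 2.95%, 4.77% and 8.48% in the same classes.

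The share was higher in zinc finger genes than in other coding genes in each class of gene length. Among genes of 10 to 30 kb, 124 of 265 zinc finger genes (46.8%) and 191 of 4911 other coding genes (3.89%) had a member. Among genes of 30 to 100 kb these shares were 64.3% and 11.7%, and above 100 kb, 50.0% and 39.8%. On chromosome 19, 162 of 261 zinc finger genes had a member (62.1%), with a median of 5 members in those that did. On the other chromosomes 108 of 292 did (37.0%), with a median of 4. For other coding genes the share was 9.60% on chromosome 19 and 12.5% elsewhere.

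The genes with the most members lay in the clusters of chromosome 19. ZNF98 (ENSG00000197360, chr19:22573821-22715287, minus strand) held 34 members, which took 24.8% of its body. ZNF345 held 26 members over 62.7 kb, 41.4% of its body, and ZNF44 held 23 over 70.2 kb, 45.3%. No short peak outside DiffBind regions lay over ZNF44 or ZNF569, which held 20 members, whereas ZNF420 held 21 members and 15 such peaks. ZFP30 held 22 members and ZNF568 held 21. These genes all encode zinc finger proteins of the C2H2 type. The count for 46 members over ENSG00000291239 and 32 over ENSG00000267360, unnamed loci of 148 kb and 117 kb, repeats members of the named genes that they overlap, as does that of 21 over ZNF670-ZNF695, a joined transcript of a pair of neighbours on chromosome 1.

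By share of the gene body, short genes led. Among zinc finger genes, ZNF527 had 64.6% of its body in 11 members, ZNF32 62.3% of 5.02 kb in 3, ZNF528 58.4% of 20.6 kb in 6 and ZNF615 56.8% of 16.9 kb in 7. ZNF572 had 57.4% of 6.09 kb in 3 members. No base of ZNF527, ZNF32, ZNF528, ZNF572 or ZNF615 lay in a PRO peak, whereas 2.30% of ENSG00000291239 and 2.41% of ZNF569 did. The other genes of this rank were FAM27D1 (77.4%, in 2 members whose central 75 bases occurred 4 and 2 times in the genome), DRD5, a dopamine receptor with 75.8% of 2.38 kb in a single member, the protocadherins PCDHB15 (64.8%) and PCDHB14 (60.9%), and RTP3, which encodes a receptor-transporting protein, with 56.8% of 6.34 kb in a single member of 3601 bp.

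Members lay towards the 3′ end of zinc finger genes. With each gene body cut into 10 equal parts, the first held 4.10% of member bases over these genes and the seventh held 13.3%, and 61.3% lay downstream of the midpoint. For short RS-only peaks outside DiffBind regions 52.0% lay there, and for members over other coding genes 51.0%. An exon was touched by 573 of the 1529 pairs of a member and a zinc finger gene (37.5%), and the last exon by 219 (14.3%), where 7.61% of gene bases lay. Over other coding genes the last exon was touched by 4.07% of pairs and held 2.92% of gene bases. A pair counted once the member touched the exon, so shares of pairs and shares of bases are unlike measures. No excess over the last exon is read from them. The last-exon share over zinc finger genes was nearly the same for short peaks outside DiffBind regions (14.1%).

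**Figure D2:**
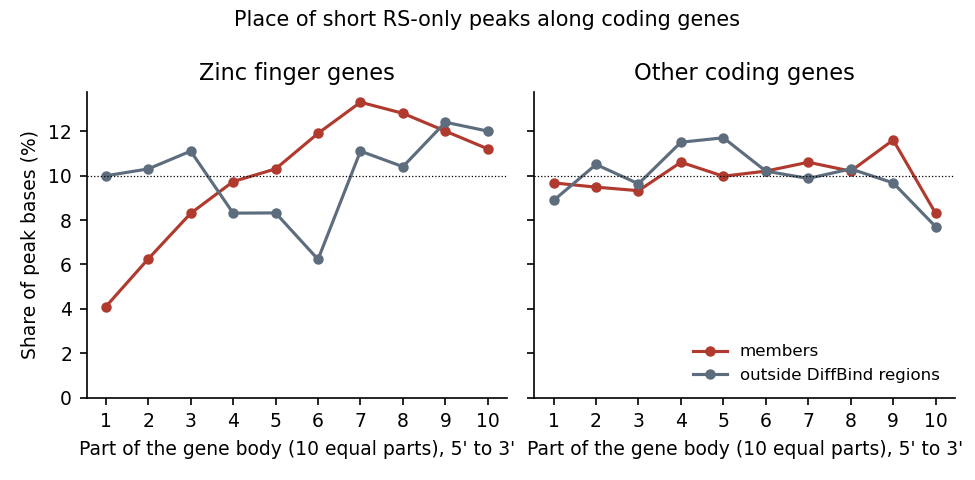
Share of peak bases in each of 10 equal parts of the gene body, from 5′ to 3′, for members and for short RS-only peaks outside DiffBind regions, over zinc finger genes (left) and over other coding genes (right); the dotted line marks an even spread. Over zinc finger genes the members rise from 4.10% in the first part to 13.3% in the seventh, and over other coding genes they stay between 8.30% and 11.6%.

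The finger-coding stretches themselves were read through the linker motif, the 15 bases that code for threonine, glycine, glutamate, lysine and proline with any codon, searched on both strands. There were 4482 matches on chromosomes 1 to 22, of which 2448 lay in coding sequence of a listed zinc finger gene. Of the latter, 718 (29.3%) lay wholly in a member, 278 (11.4%) in a short RS-only peak outside DiffBind regions, 263 (10.7%) in a peak shared with PRO cells and 135 (5.51%) in an RS-only peak of 4000 bp or more. Among 349 zinc finger genes with at least 3 such matches, 122 (35.0%) had a match in a member, 58 (16.6%) in a shared or broad peak, 51 (14.6%) in a short peak outside DiffBind regions and 126 (36.1%) in none of these. A gene could count in several of these classes.

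A linker match was nevertheless present in few members. Of all members, 161 (1.11%) held one and 115 held 3 or more, up to 15 in a single member. Among members over a zinc finger gene 132 of 1434 (9.21%) held one, close to the 8.31% of short peaks outside DiffBind regions over such genes. Of all windows of that size 0.0249% held the motif, against 0.602% of the central windows of members and 0.224% of those of short peaks outside DiffBind regions. Linkers with another amino acid sequence were not searched. Of the members over zinc finger genes that held neither an L1 start nor a THE1-type sequence, 48.1% held an Alu sequence, compared with 24.4% of all members. Of the 663 such peaks outside DiffBind regions over these genes 252 did, compared with 15.7% of all short peaks outside.

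Regions with several members show how the DiffBind list joined them. Each of the 14462 members lay wholly inside its DiffBind region. The paper computed these regions from the intersected peaks of both states, so this may follow from how the lists were made. A member lay in 12682 regions, 72.3% of the 17541 DiffBind regions on these chromosomes, with a median length of 1601 bp. In 11236 regions there was a single member, in 1196 there were 2, in 193 there were 3, in 38 there were 4, in 13 there were 5, in 4 there were 6 and in 2 there were 7. The median share of the region in members was 66.8%, with an interquartile range from 50.0% to 85.7%. A member equalled its region in 2394 cases (16.6%), shared exactly 1 edge with it in 6229 (43.1%) and shared neither in 5839 (40.4%). A further RS peak that was no member lay in 272 of the regions (2.14%), and a PRO peak touched 78 (0.615%).

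Both regions with 7 members lay on chromosome 19. The first spanned 16001 bp over ZNF429 (chr19:21731401-21747401), and its members were 1201, 1401, 801, 3001, 2001, 2601 and 1001 bp long in order along the chromosome and filled 75.0% of it. The second spanned 12201 bp over ZNF616 (chr19:52608001-52620201), with members of 601, 801, 601, 401, 2601, 1601 and 2601 bp that filled 75.5%. Regions with 6 members lay over ZNF350 (14201 bp, 84.5% filled), over ZNF678 on chromosome 1 (10601 bp, 81.2%) and over no coding gene on chromosome 16 (chr16:90057601-90069601, 12001 bp, 70.0%). The central 75 bases of each of the members of these 5 regions occurred once in the genome.

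Neighbouring members were often close. The nearest other member was at most 2 kb away for 5273 members (36.5%), against 24.0% for short peaks outside DiffBind regions and their own kind. The median distance was 14.4 kb for members and 19.4 kb for those peaks. The nearest PRO peak lay a median of 605 kb away, and 198 members (1.37%) had one within 2 kb. There were 716 members of the shortest length and 173 RS-only peaks of 1 bp inside a DiffBind region, and there were 45 members of 3801 bp and 52 RS-only peaks of 4001 bp. Of the short peaks outside DiffBind regions, the nearest lay 399 bp from one and 1753 (10.3%) lay within 2 kb of one.

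Members were longer than short peaks outside DiffBind regions, 1047 ± 644 bp (mean ± SD over 14462 peaks) against 892 ± 529 bp over 16960, with medians of 1001 and 801 bp. The share of short RS-only peaks that were members rose from 41.3% under 500 bp through 42.6% at 500 to 1100 bp and 52.3% at 1100 to 1900 bp to 62.7% at 1900 bp or more. Together the members covered 15.1 Mb.

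**Figure D3:**
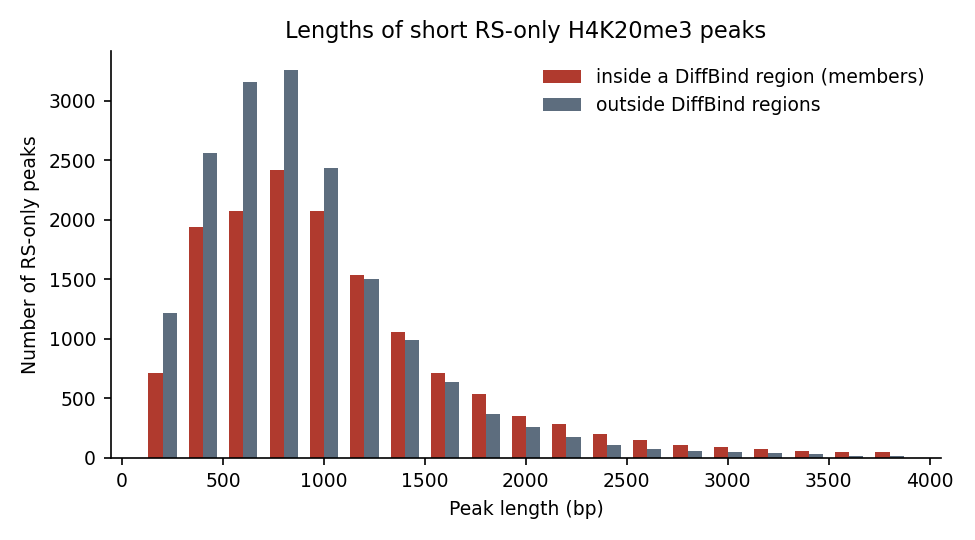
Number of short RS-only peaks of each length in bp, inside DiffBind regions (members) and outside them. Short lengths are mostly outside and long ones mostly inside, with members at 41.3% of peaks under 500 bp and 62.7% of those of 1900 bp or more.

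Across chromosomes the members were even apart from chromosome 19. That chromosome held 1564 members (10.8%), or 28.0 per sequenced Mb, and the other 21 held between 4.00 per Mb on chromosome 18 and 6.40 per Mb on chromosome 7. Short peaks outside DiffBind regions reached 20.8 per Mb on chromosome 19. Members were 57.4% of short RS-only peaks there, 56.7% on chromosome 17 and 32.6% on chromosome 21, against 46.0% in all. Of the chromosome 19 members, 939 (60.0%) lay over a zinc finger gene, as did 39.9% of the short peaks outside DiffBind regions there. The 625 members of chromosome 19 that did not lie over one still came to 11.2 per Mb, against 4.72 per Mb for such members elsewhere.

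**Figure D4:**
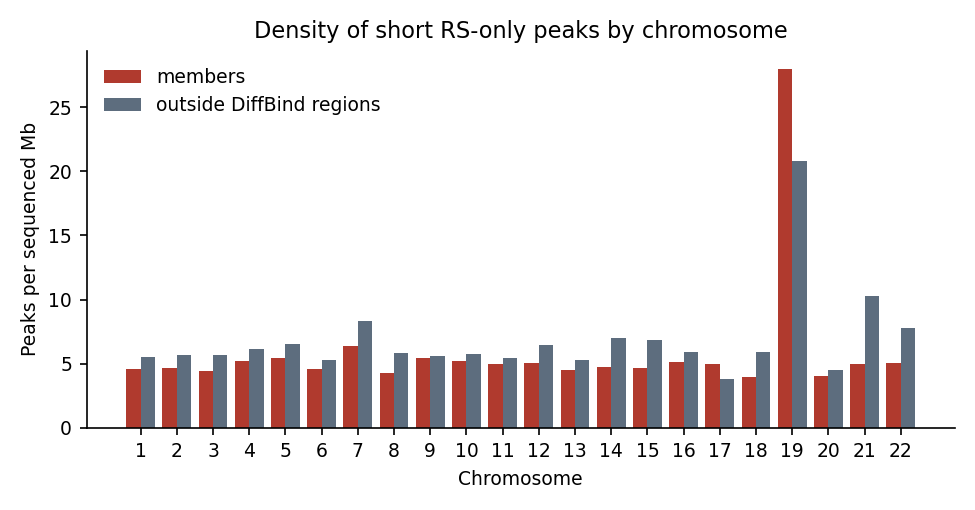
Members and short RS-only peaks outside DiffBind regions per sequenced Mb on each of 22 chromosomes. Chromosome 19 stands at 28.0 members per Mb and the others between 4.00 and 6.40.

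Members were spread over most of the genome at a coarse scale. Of 2897 windows of 1 Mb, 2606 (90.0%) held a member, with a median of 4. The 48 windows with 20 or more held 16.2% of all members. The window with most, 199, was 37000001 to 38000000 on chromosome 19, the cluster that holds ZNF345, ZNF568, ZNF420, ZNF527 and ZNF569, and it held 69 short peaks outside DiffBind regions. The window from 22000001 to 23000000 on chromosome 19, with ZNF98, held 141 of each kind. The windows from 12000001 and from 52000001 on chromosome 19 held 100 and 90 members, and the first window of chromosome 4 held 91.

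With respect to genes in general, the members were not gene-rich. A coding gene body was touched by 5753 members (39.8%), against 29.3% of short peaks outside DiffBind regions, and by the central windows of 39.5% of members against 46.6% of all windows. In 31.2% of members the overlap was with introns alone. Coding exons were touched by 1242 members (8.59%) and by 4.82% of short peaks outside DiffBind regions, and in central windows by 5.52% and 3.30% against 5.48% of all windows. A coding gene start lay within 2 kb of 322 members (2.23%), compared with 2.31% of short peaks outside DiffBind regions, 7.97% of RS-only peaks of 4000 bp or more and 12.9% of peaks shared with PRO cells. No annotated gene of the coding, pseudogene or non-coding RNA kinds was touched by 41.6%.

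Other gene families differed in their counts of members, read against the 13.4% of all coding genes with one and, where given, against genes of like length. Clustered protocadherins, cell-surface adhesion proteins of neurons with many variable first exons, had a member over 19 of 53 genes (35.8%) and a short peak outside DiffBind regions over 40. PCDHA1, PCDHA2 and PCDHA3 held 13, 12 and 11 members, but these genes overlap and share most of them. Olfactory receptors had a member over 19 of 414 genes (4.59%), with 4 members over OR1F1 and 2 each over OR1D2 and OR3A2, and the genes are short (median 2.09 kb). Keratin-associated proteins of hair had 7 of 94 (7.45%), among them KRTAP1-4, KRTAP4-12 and KRTAP4-8 with 71.1%, 55.0% and 51.1% of the gene in a single member. Their median length was 0.859 kb. Of coding genes under 10 kb outside the zinc finger list 1.97% had a member. The share was higher in olfactory receptors and keratin-associated proteins, although some olfactory receptor genes were longer, such as OR3A2 with 110 kb. Collagens had 7 of 42 (16.7%), led by COL21A1 with 5 members over 338 kb, followed by COL23A1 with 3 and COL26A1 with 2. The median gene length was 110 kb for the protocadherins and 133 kb for the collagens. Of coding genes above 100 kb outside the zinc finger list 39.8% had a member, and collagens lay below that share. The protocadherin median hides short genes such as PCDHB15 (3.97 kb) and PCDHB14 (4.42 kb), so that share is no measure for the whole family. Members took 3.16% of protocadherin gene bases and 0.228% of collagen gene bases. For coding genes outside the zinc finger list they took 0.380%. Of 76 ribosomal protein genes, with a median length of 5.60 kb, only RPL22 had one (1.32%). Imprinted genes had 7 of 30 (23.3%), with 7 members over KCNQ1, a potassium channel gene of 404 kb, 2 over ZNF331 and 1 over GRB10.

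Genes known from senescence, histone methylation and fibroblasts were read against the same 13.4% of all coding genes. Of 31 senescence and secretory genes, whose median length was 10.9 kb, 2 had a member (6.45%), TERT, the catalytic subunit of telomerase, with 2 members of 2201 and 601 bp that took 6.68% of its body, and RB1, the retinoblastoma cell-cycle regulator, with 1 member of 1001 bp. The larger TERT member had a central 75-base sequence that occurred 6 times. CDKN2A, IL6 and LMNB1 were among the 29 with none. Of coding genes of 10 to 30 kb outside the zinc finger list, 3.89% had a member. Of 29 genes for H4K20 and H3K9 methylation on these chromosomes, 4 had members (13.8%), near the share of all coding genes, the demethylase KDM4C and the methyltransferase EHMT1 with 3 each, the histone chaperone HIRA with 2, and ZNF274, which recruits SETDB1 to zinc finger genes, with 1. In ZNF274, 25.6% of the body lay in PRO peaks. The genes for both H4K20 methyltransferases had none. Of 21 fibroblast genes, 3 had members (14.3%), also near that share, S100A4, a calcium-binding protein, with 2 that took 52.3% of its 6.52 kb, TWIST2 with 1 of 1401 bp and FBLN1, a matrix protein, with 1 of 3001 bp.

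The base composition of the members was above that of the genome. The central windows had a median GC of 51.2%, with an interquartile range from 45.8% to 55.2%, against 39.8% for all windows. Short peaks outside DiffBind regions had 50.2%, RS peaks shared with PRO cells 48.8% and RS-only peaks of 4000 bp or more 48.3%. A GC of 50% or more was found in 57.8% of members and 17.8% of all windows, and 6 or more CpG in 2169 members and in 7.29% of all windows. Members over zinc finger genes without an L1 start or THE1-type sequence had a lower median, 45.8%.

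**Figure D5:**
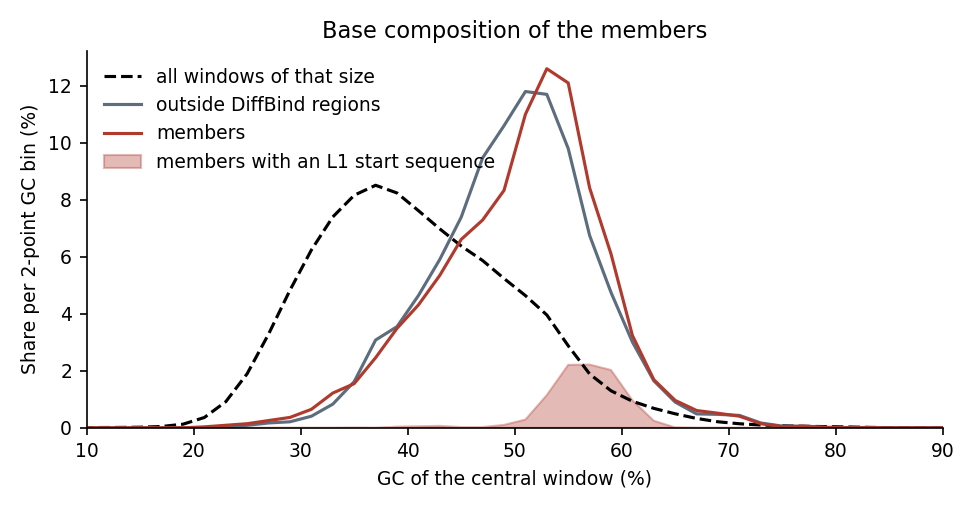
Distribution of the GC content of the central windows, in bins of 2 percentage points, for members, short RS-only peaks outside DiffBind regions and all consecutive windows of that size; the filled area is the part of the members that held an L1 start sequence. Members centre on 51.2% and all windows on 39.8%, and the L1 start members, 9.46% of the members, lie on the GC-rich side around 56.7%.

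Satellite and telomere repeats were rare in the central windows of members, as they were in all windows. The CENP-B box, a motif of centromeric alpha satellite searched on both strands, was in the central window of 0 of 14462 members, which allows a share of up to 0.0207% by counting error alone. It was in 21 short peaks outside DiffBind regions, in 14 peaks shared with PRO cells and in 0.00446% of all windows. The unit GGAAT of satellites II and III, repeated 3 times, was in 1 member, 15 short peaks outside DiffBind regions, 24 shared peaks and 0.0157% of all windows. The telomere unit TTAGGG, repeated 2 times, was in 0, 6 and 6, and in 0.00578% of all windows. For these 3 motifs the counts in members are too low to set them apart from all windows. The dinucleotide CA, repeated 10 times, was in 40 members (0.277%) against 0.468% of all windows. Members were also the less repeated of both kinds of short peaks. The central 75 bases occurred more than once in the genome in 1005 members (6.95%), 13.3% of short peaks outside DiffBind regions, 30.9% of shared peaks and 4.08% of 66792 sampled windows.

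After L1 starts, THE1-type sequences and zinc finger genes, 11206 members (77.5%) held none of these. Their median length was 801 bp and their median GC 51.2%. A coding gene body was touched by 33.6% of them and an exon by 5.95%, 5.43% lay on chromosome 19, and 24.7% held an Alu sequence. Of the short RS-only peaks of this remaining kind 43.9% were members, against 68.2% of those over zinc finger genes without either sequence.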

How the data were processed

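H4K20me3 was measured by ChIP-seq in IMR90 cells, in 2 PRO and 2 RS samples, 1 per antibody. Per the paper's methods and the labels, reads were aligned to hg19 with Bowtie2 2.1.0, domains were called against a histone H4 ChIP with SICER 1.1 in windows of 200 bp, and the peaks of both antibodies were intersected per state. Differential regions were listed with DiffBind 1.8.3 at a false discovery rate of 0.01. The 3 lists were used as deposited by the authors, as start and end positions in bases without scores, counts or direction, so samples cannot be told apart in them. The study tabulates the reads of each sample, and 1 of the RS samples had far fewer uniquely aligned reads than the other. Most uniquely aligned reads were duplicates in that other RS sample and in 1 of the PRO samples. No read count entered the values here, and the depth behind a listed peak is not in the lists. Starts lie on multiples of 200 bp. The DiffBind list used here has 18711 regions, fewer than the study describes, and every value holds for this list. Read placement in repeats decides which copies can carry a peak, and although the study tabulates uniquely aligned reads for each ChIP sample, its ChIP-seq methods do not say whether peaks were called on these alone.

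Overlaps were counted and checked on simulated lists, with genes from GENCODE release 44 on GRCh37, which shares hg19 coordinates on the 22 chromosomes used. Sequence was read in a central window of each peak, 1 base longer than a SICER window, and in all 13355805 consecutive windows of that size. Copies of 75-base sequences were counted on both strands of the whole genome, and copies of the shared 31-base sequences on both strands of chromosomes 1 to 22. Names of repeat families come from general knowledge, since no repeat annotation was used here. The sequences of the repeats and some single windows are not reported here. The genes named were the 10 coding genes with most members, the 10 of at least 2000 bases with the largest share of the body in members, the 3 with most members in each family, every gene of the senescence, methylation and fibroblast lists with a member, the 5 DiffBind regions and the 5 windows of 1 Mb with most members. Members, gene lists and comparisons were chosen with earlier results of these data known. No test was run, since each state had 1 merged list. Alternative rules for the members were tried and are given at the end.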

Additional observations from a re-analysis of the deposited data

How the results depend on the processing

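No paired analysis was possible because each state had 1 merged list over both antibodies, and for the same reason no sample could be left out. Of 113 values recomputed under alternative rules, 76 stayed within a set range of the reported value and 37 moved beyond it. The range was a 95% interval, exact binomial for shares and by rank for medians. For the number and covered length of members it was within 1.5 times. These intervals treat members as independent although many lie close together, so they are a yardstick and measure no spread between samples. An overlap of at least 50% of the peak could change nothing, since each member lay wholly inside its region. The number of members ran from 11805 with a minimum of 600 bp to 14464 with ends lowered by 1 base. The share over zinc finger genes (9.92%) moved to 3.84% without chromosome 19, 6.34% with members within 1000 bp merged, 8.89% under 2000 bp and 9.35% at 600 bp or more, and to 10.9% without members that held an L1 start. The share over coding gene bodies (39.8%) moved to 35.8% without chromosome 19, 37.4% merged, 38.7% at 600 bp or more and 40.6% without L1 starts. The share on chromosome 19 (10.8%) moved to 7.38% merged, 9.76% under 2000 bp and 11.8% without L1 starts. The median GC (51.2%) moved to 49.5% over whole members and 50.7% without L1 starts. The share of members with a neighbour in the same DiffBind region (22.3%) moved to 1.97% merged, which joins such neighbours by construction, 15.7% at 600 bp or more, 19.8% without chromosome 19, 19.9% under 2000 bp and 24.0% without L1 starts. Where none is given here, the cause was not tested. The alternatives on L1 starts were chosen after seeing the data. The repeat-masked share was not run, since the reference used here held no masked bases. The share with a repeated 75-base sequence was not run on merged members. The absence of scores, depths and per-antibody lists limits every value to counts of listed positions.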
